A study of Saccharomyces cerevisiae S288C with 9 samples.

Results

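The comparison of a Set1 S228A yeast strain with its wild type (WT) was made over 6 of the 9 libraries of the study, 3 from each strain, and over all 7127 annotated rows of the deposited count table. The strain labels and replicate numbers chose the libraries, and no measured value entered the choice. Both strains are Saccharomyces cerevisiae S288C, grown untreated in YPD, a rich glucose medium, and collected in mid-log phase. WT carried the unaltered Set1 protein, and S228A carried a Set1 in which the serine that the strain name gives was replaced by alanine. The remaining 3 libraries came from a strain with glutamate at the same position (S228E). The series text calls the replicates biological. The labels do not say whether the 3 libraries of a strain came from 1 clone or from several, so the p-values measure the spread between these libraries only. The account below is about genes beyond the strongest mating and histone genes, with most of its room given to changes of 1.5 to 4 fold.

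Set1 is the methyltransferase of the COMPASS complex, which places methyl groups on lysine 4 of histone H3 along transcribed genes. Serine can be phosphorylated and alanine cannot, which is why the substitution is used to remove a phosphorylation site. In a haploid a cell, alpha-factor pheromone acts through a G protein and a MAP kinase cascade on the transcription factor Ste12, which turns on mating genes while the cell halts in G1 and grows a mating projection. In dividing cells the factors SBF and MBF drive G1/S genes, and forkhead factors with Mcm1 drive genes of G2 and mitosis.

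The position of the substitution in the SET1 gene (YHR119W) is shown because it is the only genetic difference the labels give between the strains. The stretch is the plus strand of chrVIII:346700-346750 in the RefSeq R64 genome, the same build as sacCer3, and the capitals mark the reference codon of the substituted serine, at bases 346724 to 346726. The codon carried by the mutant strain was not read here, since the table holds counts and no sequence.
SET1: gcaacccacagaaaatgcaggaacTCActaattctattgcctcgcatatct

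SET1 itself was measured at 203.3, 203.5 and 192.6 CPM (counts scaled to library size) in the WT libraries and at 215.8, 182.4 and 211.1 CPM in the S228A libraries. The groups overlapped, and the log2 fold change was 0.02 ± 0.08 (SE; edgeR adjusted p = 0.857). Since a substitution can leave transcript abundance as it was, the level is no check of the labels. Gene totals per library ran from 17282728 to 19658103 counts, and 6133 of the 7127 rows had enough counts to be tested. On a principal component analysis of log CPM the leading axis (74.2% of variance) placed the 3 S228A libraries at 31.82 to 35.57 and the WT libraries at -17.91 to -16.15. Markers of a cells were present in both strains, with the pheromone receptor gene STE2 at 577.6 ± 77.1 CPM in WT (SD, n = 3), while the alpha-cell receptor gene STE3 was at 3.22 ± 1.08 CPM. Of the 5 alpha-specific genes 2 were called higher in S228A, namely the agglutinin gene SAG1, which went from 48.7 ± 2.34 to 160.0 ± 34.6 CPM, and the pheromone gene MF(ALPHA)2, which went from 7.44 ± 1.58 to 14.7 ± 2.21 CPM. The biosynthetic genes URA3, LEU2 and MET17 had 0 or 1 count in each of the 6 libraries, so both strains lacked reads over the same loci. HIS3 had reads in both, at 203.1 ± 21.5 CPM (WT) and 199.8 ± 9.25 CPM (S228A).

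A row was called when edgeR's quasi-likelihood test gave a Benjamini-Hochberg adjusted p under 0.05 and the fold change was over 1.5, the thresholds of the series text. By this rule 268 rows (4.37% of those tested) were higher in S228A and 479 rows (7.81%) were lower. In protein-coding rows the counts were 197 of 5717 (3.45%) higher and 458 (8.01%) lower. The sizes were mostly modest: 113 of the 268 higher rows lay between 1.5 and 2 fold and 90 between 2 and 4 fold, and for the lower rows the counts were 272 and 152. Only 65 higher and 55 lower rows went past 4 fold. A further 1397 rows had an adjusted p under 0.05 but a fold change under 1.5, 684 of them higher and 713 lower, so that 2144 rows (35%) passed the adjusted p alone. At an unadjusted p under 0.05 there were 2739 rows (44.7%). The 3 values of each strain did not overlap in 2729 rows (44.5%), with S228A higher in 20.2% and lower in 24.3% of the rows tested.

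The mating and histone lists held 29 of the higher and 11 of the lower called rows. Outside these lists 168 protein-coding genes were higher and 447 were lower. The lists held 12 of the 32 rows over 8 fold higher, but only 3 of the 113 rows between 1.5 and 2 fold. Over all protein-coding called genes, lists included, the median size of the log2 change was 1.02 for the higher and 0.92 for the lower genes. Over the 6 libraries of both strains, genes called lower had a median level of 29 CPM, genes called higher one of 68 CPM and all protein-coding genes tested one of 57.4 CPM. These levels include the S228A values that made the calls, so they do not give the level in WT. The median lengths of the lower and higher genes, 1126 and 1230 bases, lay on either side of the 1212 bases of all genes tested.

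**Figure D1:**
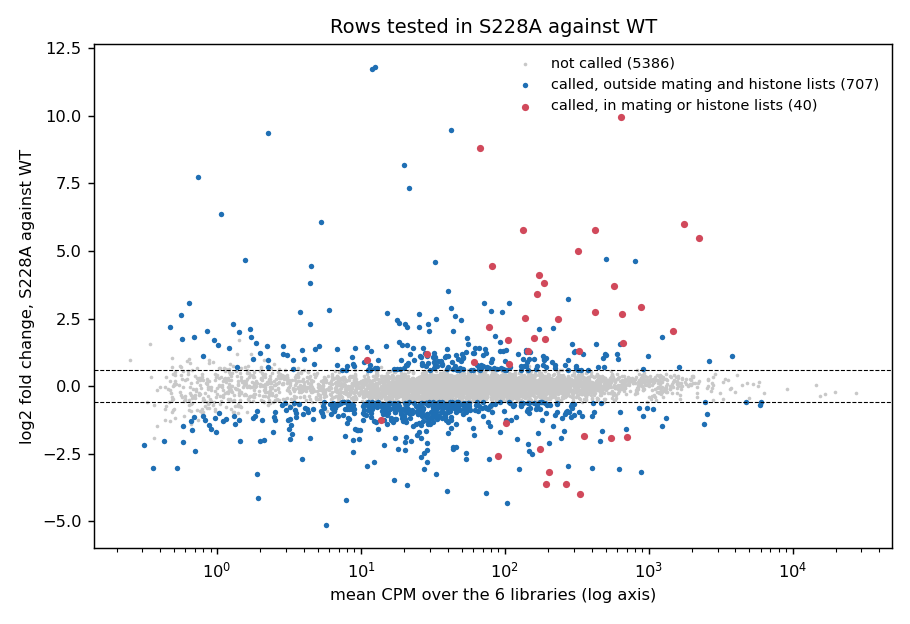
Each point is 1 of the 6133 rows tested, placed by its mean CPM over the 6 libraries (log axis) and its log2 fold change in S228A against WT. Dashed lines mark a fold change of 1.5. The 707 called rows outside the mating and histone lists (blue) are crowded near the lines and more of them lie below than above, and the 40 called rows in those lists (red) reach farther from 0.

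Genes are named here by their p within a size class, with no overlap between the groups, so their small spread follows from the choice. Among genes 1.5 to 2 fold higher, AXL1 (YPR122W, chromosome XVI, 782045 to 785671, plus strand), whose protein trims the a-factor precursor and marks the axial bud site of haploids, was at 103.5, 94.5 and 97.5 CPM in WT and at 192.6, 195.6 and 200.8 CPM in S228A. Its log2 fold change was 0.99 ± 0.07 (SE; edgeR adjusted p = 1.36e-07). All 3 S228A values stood above all 3 WT values, with a spread within each group far smaller than the gap between them. GFA1 (YKL104C), the first enzyme of the pathway to the chitin precursor, was at 388.8, 398.2 and 429.7 CPM in WT and at 795.2, 803.5 and 830.7 CPM in S228A (log2 1.00 ± 0.07; edgeR adjusted p = 2.78e-07). MKC7, a yapsin protease of the cell surface, rose from 69.8 ± 3.96 to 131.8 ± 3.32 CPM. BEM2, a GTPase-activating protein, rose from 232.6 ± 10.9 to 391.0 ± 13.9 CPM, and COG1, a subunit of a Golgi tethering complex, from 55.5 ± 3.91 to 103.6 ± 8.32 CPM (SD, n = 3; edgeR adjusted p at most 2.43e-06 for all 5 genes).

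Between 2 and 4 fold higher, the genes with the smallest p were SCW10, ORT1, ECM18, PRP39 and CHS1. SCW10 (YMR305C, chromosome XIII, 879063 to 880232, minus strand), a glucanase-like protein of the cell wall, was at 543.4, 588.6 and 528.2 CPM in WT and at 1917, 1789 and 2058 CPM in S228A (log2 1.80 ± 0.08; edgeR adjusted p = 3.44e-09). ORT1, the ornithine carrier of the mitochondrial inner membrane, was at 29.2, 27.3 and 27.6 CPM in WT and at 85.2, 87 and 75.1 CPM in S228A (log2 1.56 ± 0.09; edgeR adjusted p = 2.78e-08). No S228A library overlapped a WT library for either gene, which the naming rule required. PRP39, a protein of the U1 splicing particle, had a log2 value of 1.29 ± 0.08, ECM18 of 1.39 ± 0.08, and CHS1, the chitin synthase that repairs the wall of separating cells, of 1.56 ± 0.09 (edgeR adjusted p at most 5.37e-08).

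Beyond 4 fold, and outside the mating list, PRM8 (YGL053W), a pheromone-regulated membrane protein, was at 54.7, 52.1 and 52.7 CPM in WT and at 451.0, 562.8 and 460.4 CPM in S228A (log2 3.21 ± 0.10; edgeR adjusted p = 1.53e-10). PGU1 (YJR153W), a secreted pectin-degrading enzyme, was at 14.7, 13.2 and 17.6 CPM in WT and at 128.1, 115.0 and 137.7 CPM in S228A (log2 3.07 ± 0.11; edgeR adjusted p = 6.07e-10). KAR5, needed for fusion of the nuclear envelopes after mating, rose from 20.2 ± 3.15 to 139.7 ± 19.6 CPM. The S228A values of these 3 genes were all several times the highest WT value. YGL194C-A, a short reading frame, was higher at log2 2.60 ± 0.12 (edgeR adjusted p = 3.59e-09), and its tandem neighbour HOS2, a histone deacetylase of the Set3 complex, by 1.09 ± 0.11 (edgeR adjusted p = 9.02e-06). Both lie on the minus strand of chromosome VII, YGL194C-A at 139719 to 139961 and HOS2 at 140368 to 141726.

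AIR1, an RNA-binding subunit of the TRAMP complex of nuclear RNA surveillance, averaged 15.5 ± 2.23 CPM in WT and reached 83.5 ± 8.86 CPM in S228A (log2 2.43 ± 0.12; edgeR adjusted p = 1.12e-08). It lies on the minus strand of chromosome IX at 210923 to 212005. A Ty3 transposon row, YIL082W-A, ends at 210132 on the plus strand, toward AIR1, and a tRNA row, tI(AAU)I2, stands between them at 210665 to 210738. YIL082W-A was at 66.1, 54.8 and 66.1 CPM in WT and at 1474, 1713 and 1456 CPM in S228A, and tI(AAU)I2 had 0 counts in the WT libraries and 4, 4.91 and 4.68 CPM in S228A. These neighbours were chosen after their values were seen. The counting command sets no strand option, so reads of AIR1 and plus-strand reads over it cannot be told apart.

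The genes with the smallest p among those 1.5 to 2 fold lower were LPX1, HEK2, POL2, VID22 and TUB2. HEK2, an RNA-binding protein of messenger localization, was at 261.1, 260.5 and 245.4 CPM in WT and at 135.7, 118.7 and 132.1 CPM in S228A (log2 -0.99 ± 0.07; edgeR adjusted p = 3.94e-07). POL2, the catalytic subunit of DNA polymerase epsilon, was at 54.4, 55.3 and 53.3 CPM in WT and at 28.6, 27.7 and 30.5 CPM in S228A (log2 -0.91 ± 0.07; edgeR adjusted p = 5.57e-07). TUB2, the yeast beta-tubulin, fell from 553.4 ± 11.2 to 283.4 ± 27.7 CPM. For all of them the S228A libraries lay below the WT libraries without overlap, which the naming rule required. LPX1, a peroxisomal lipase, had a log2 fold change of -0.95 ± 0.07 and VID22 one of -0.96 ± 0.08 (edgeR adjusted p at most 1.17e-06 for the 5 genes).

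Between 2 and 4 fold lower, MMR1 (YLR190W), which carries mitochondria into the bud, was at 98.6, 92.5 and 93.9 CPM in WT and at 28, 27.3 and 26.8 CPM in S228A (log2 -1.80 ± 0.07; edgeR adjusted p = 1.29e-09). SUR7 (YML052W), a membrane protein of eisosomes, was at 194.6, 197.8 and 185.0 CPM in WT and at 49.6, 45.6 and 53.5 CPM in S228A (log2 -1.96 ± 0.08; edgeR adjusted p = 1.70e-09). The groups stood apart for both genes by far more than either spread, which a choice by small p favours. SRL1, a wall mannoprotein, fell by 1.91 on the log2 scale, STU2, a microtubule polymerase, by 1.73, and the uncharacterized YML119W by 1.69 (SE 0.08 to 0.09; edgeR adjusted p at most 1.51e-08).

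Past 4 fold lower, TOS6 (YNL300W), a predicted wall protein, was at 205.3, 203.4 and 186.7 CPM in WT and at 10.3, 8.83 and 10.5 CPM in S228A (log2 -4.33 ± 0.09; edgeR adjusted p = 1.24e-11). AXL2 (YIL140W), the landmark of axial budding, was at 88.2, 90.9 and 91.4 CPM in WT and at 16.8, 14.8 and 17.7 CPM in S228A (log2 -2.46 ± 0.08; edgeR adjusted p = 1.64e-10). GAS3, of a family of glucan-elongating wall enzymes, fell from 263.6 ± 12.9 to 46.8 ± 4.85 CPM. In each of these genes the highest S228A value was under the lowest WT value by several fold. TOS4 and the G1 cyclin gene CLN1 completed the 5, at log2 -3.66 ± 0.13 and -2.69 ± 0.10. The 30 genes of the 6 size classes were measured in S228E too, and 0 of them had an edgeR adjusted p under 0.05 against the same WT libraries. Their log2 fold changes there ran from -0.20 to 0.30, and the smallest edgeR adjusted p was 0.644.

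**Figure D2:**
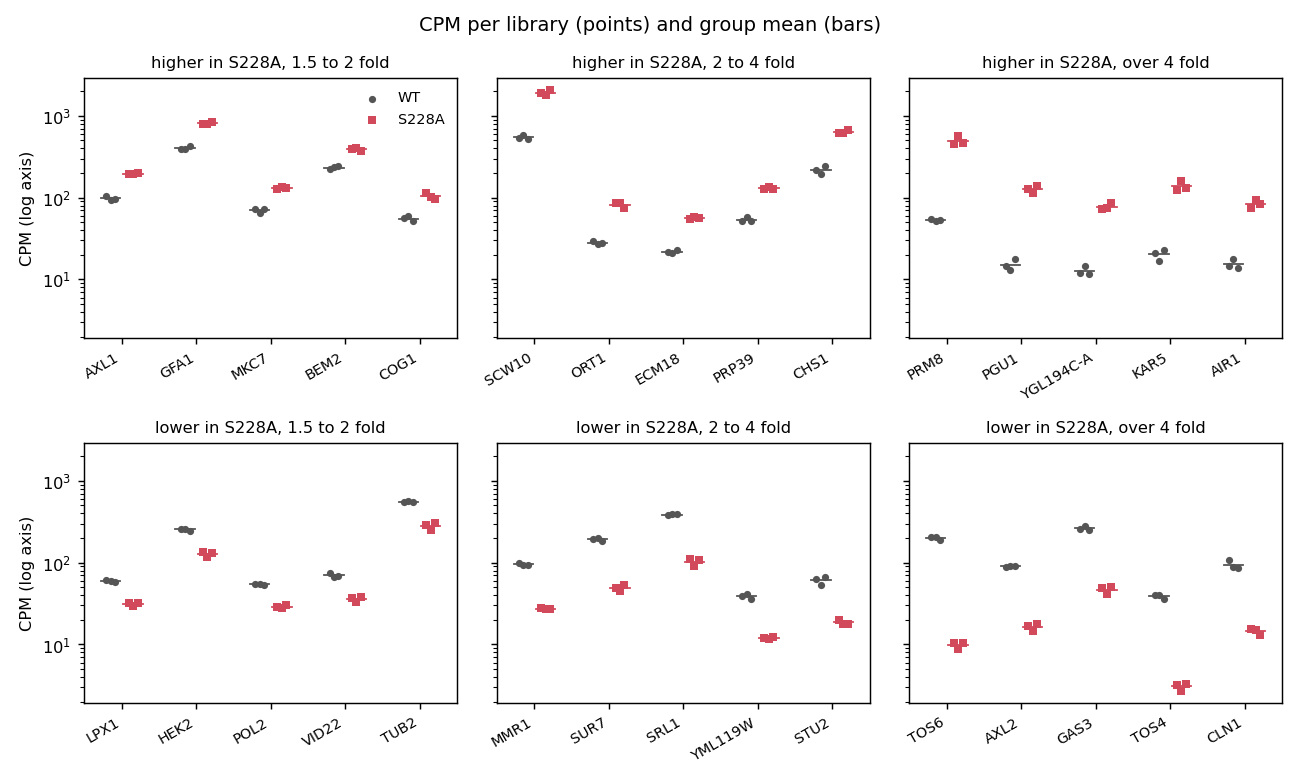
CPM (log axis) of the 5 genes with the smallest p in each direction and size class, with 3 WT libraries (grey circles) and 3 S228A libraries (red squares) per gene and a bar at each group mean. The groups do not overlap for any of the 30 genes, which the naming rule required, and GFA1 for example lies at 388.8 to 429.7 CPM in WT and 795.2 to 830.7 CPM in S228A.

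Genes of the steps that follow pheromone signalling were called in part. Members named below beyond the 3 with the smallest p in a list were chosen after their values were seen. Of 17 nuclear fusion genes 6 (35.3%) were called higher and 2 (11.8%) lower, beside 4.37% higher and 7.81% lower over all rows, with PRM3 going from 7.15 ± 1.24 to 154.6 ± 17.9 CPM and PRM2 from 18.9 ± 1.6 to 328.3 ± 56.7 CPM. Of the 6 higher genes only KAR5 is outside the mating lists, which also count CIK1, KAR3, KAR4, PRM2 and PRM3. The lower ones were the spindle pole body genes KAR1 (log2 -0.64) and MPS3 (-0.77). The median log2 of that list was 0.07, near the -0.01 of all rows tested, and the 2 lower calls became 1 without WT replicate 3. KAR1 was not called without WT replicate 3 (-0.56) or without S228A replicate 1 (-0.50). Of 7 genes of a-factor maturation AXL1 and the methyltransferase gene STE14 (28.6%) were higher (STE14 log2 0.66 ± 0.09; edgeR adjusted p = 7.62e-05), and RCE1, the protease that removes the last residues of the prenylated precursor, was lower at -1.19 ± 0.10 (edgeR adjusted p = 1.33e-06). Consecutive enzymes of the pathway thus had opposite signs in the same libraries. Of 21 filamentous growth genes 5 (23.8%) were higher and 0 lower, namely PGU1, the Ste12 inhibitor gene DIG2 (log2 1.16 ± 0.10), the MAP kinase gene KSS1 (0.64 ± 0.09; edgeR adjusted p = 0.000157) and the transcription factor genes TEC1 (1.54) and MSS11 (1.21). KSS1 was not called without WT replicate 1, at 0.58, and 1 filamentous gene was called lower when WT replicate 1, WT replicate 2 or S228A replicate 2 was left out.

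Of 38 polarity genes 5 (13.2%) were higher and 9 (23.7%) lower, beside 4.37% and 7.81% of all rows. Besides AXL1 and BEM2 the higher ones were AFR1 (log2 2.13), GIC2 (1.02) and RGA1 (0.64), the latter both tied to the GTPase Cdc42. The lower ones included the bud site landmarks. BUD4 was at 65.4, 69.7 and 79.5 CPM in WT and at 14.2, 13.9 and 17 CPM in S228A (log2 -2.25 ± 0.10; edgeR adjusted p = 3.57e-09), and BUD3 was at 41.9, 38.4 and 44 CPM in WT and at 9.3, 12.2 and 11 CPM in S228A (-1.93 ± 0.11; edgeR adjusted p = 2.15e-08). With AXL2 above, 3 landmark genes of axial budding were thus low in every S228A library, while AXL1, which acts with them, was high.

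Of 25 cyclin and CDK regulator genes 9 (36%) were lower and 2 (8%) higher, and of 23 cell cycle transcription factor genes 13 (56.5%) were lower and 0 higher. Over all rows 7.81% were lower and 4.37% higher. The mitotic cyclin gene CLB2 was at 48.4, 47.3 and 48.6 CPM in WT and at 7.71, 10.2 and 10.3 CPM in S228A (log2 -2.35 ± 0.11; edgeR adjusted p = 3.57e-09). FKH1, a forkhead factor, was at 36.5, 37.4 and 32.7 CPM in WT and at 9.36, 8.21 and 8.92 CPM in S228A (-2.01 ± 0.10; edgeR adjusted p = 1.17e-08). Every S228A library was below every WT library for both. The G1 cyclin genes CLN3 (1.28) and PCL2 (3.06) were the 2 called higher. Other G1 cyclin genes were among the 9 lower ones, namely PCL1 (-5.14), CLN1 (-2.69) and CLN2 (-1.31). The transcription factor list had a median log2 of -0.69 against -0.01 over all rows.

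Of 36 genes of the replication fork 13 (36.1%) were lower and 0 higher, and of 21 genes of origin licensing 3 (14.3%) were lower and 1 (4.76%) higher, beside 7.81% lower and 4.37% higher over all rows. The difference between these lists was not tested. POL1, the catalytic subunit of polymerase alpha, was at 35.6, 38.5 and 34.8 CPM in WT and at 13.4, 14.2 and 14.9 CPM in S228A (log2 -1.36 ± 0.10; edgeR adjusted p = 2.67e-07). RAD27, the flap nuclease that finishes lagging strand fragments, fell by 1.39 ± 0.10 (edgeR adjusted p = 3.60e-07). Among licensing genes ORC1 was at -0.80 ± 0.08, CDC45 at -1.03 ± 0.17 and CDC6 at -0.96, whereas the helicase subunit gene MCM5 was at 0.67 ± 0.10 (edgeR adjusted p = 0.000247). The MCM5 call was lost without WT replicate 2, at 0.58. Of 11 genes for making deoxynucleotides 4 (36.4%) were lower, with the thymidylate synthase gene CDC21 at -1.93 ± 0.12 and SML1, the inhibitor of ribonucleotide reductase, at -1.04 ± 0.07 (edgeR adjusted p at most 1.17e-07). The other two were the reductase gene RNR1 (-3.06), whose product SML1 inhibits, and DIF1 (-0.80). Of 43 repair and checkpoint genes 9 (20.9%) were lower and 0 higher, led by the helicase gene SRS2, which was at 76.7, 76.2 and 72.4 CPM in WT and at 15.9, 13.9 and 18 CPM in S228A (-2.24 ± 0.09; edgeR adjusted p = 1.46e-09). MSH6 of mismatch repair was at -1.14 ± 0.10.

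Chromosome segregation genes were called lower in larger shares than the 7.81% of all rows. Of 16 cohesin and condensin genes 12 were lower and 0 higher, with a median log2 of -0.95. PDS5, a cohesin regulator, was at 33.7, 34.6 and 30.4 CPM in WT and at 8.39, 8.37 and 6.78 CPM in S228A (log2 -2.07 ± 0.11; edgeR adjusted p = 2.15e-08). MCD1, the cohesin subunit cut at anaphase, was at -2.79 ± 0.21, and ESP1, the protease that cuts it, at -1.13 ± 0.09 (edgeR adjusted p at most 7.23e-07). Subunit, regulator and protease thus moved in 1 direction, and no S228A value overlapped WT in these 3 genes. Of 33 spindle and spindle pole genes 19 were lower and SLI15 (0.88) was higher, with the kinesin gene CIN8 at -1.89 ± 0.12 and the gamma-tubulin complex gene SPC97 at -2.33 ± 0.15. Of 42 kinetochore and spindle checkpoint genes 18 were lower and 0 higher, with CBF2 at -1.32 ± 0.10, CTF3 at -1.09 ± 0.09 and SPC24 at -1.94 ± 0.16 (edgeR adjusted p at most 1.08e-06).

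Among genes of late mitosis and cell division calls were made in both directions. Of 20 mitotic exit genes 5 (25%) were lower and 2 (10%), AMN1 and SPO12 (log2 1.03), were higher, beside 7.81% and 4.37% of all rows. CDC5, the polo kinase, was at 45.3, 44.9 and 49.1 CPM in WT and at 8.5, 8.68 and 7.77 CPM in S228A (log2 -2.48 ± 0.13; edgeR adjusted p = 1.34e-08). AMN1, an antagonist of mitotic exit that also acts in daughter cell separation, was at 291.8, 309.7 and 362.3 CPM in WT and at 856.2, 1068 and 896.1 CPM in S228A (1.55 ± 0.10; edgeR adjusted p = 1.32e-07). CDC5 was low and AMN1 high in every S228A library. The other lower members were HSL1 (-1.56), LTE1 (-1.17), BFA1 (-0.91) and BNS1 (-0.76). Whether the direction of a call followed the role of the gene in mitotic exit was not tested. Of 15 septin and morphogenesis checkpoint genes 6 (40%) were lower and 0 higher, among them the kinase genes GIN4 (-2.82 ± 0.11), HSL1 (-1.56 ± 0.09) and SWE1 (-1.31 ± 0.10). Of 16 genes of the cytokinesis ring 7 (43.8%) were lower and 0 higher, with HOF1 at -3.06 ± 0.13. Of 14 genes of daughter cell separation, 4 (28.6%) were higher and PRY3 (-0.94) was lower: the chitinase gene CTS1 was at 1704, 1835 and 1868 CPM in WT and at 3557, 3087 and 3712 CPM in S228A (0.94 ± 0.09; edgeR adjusted p = 4.46e-06), and the glucanase gene SCW11 rose from 176.9 ± 14.9 to 425.0 ± 41 CPM.

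**Figure D3:**
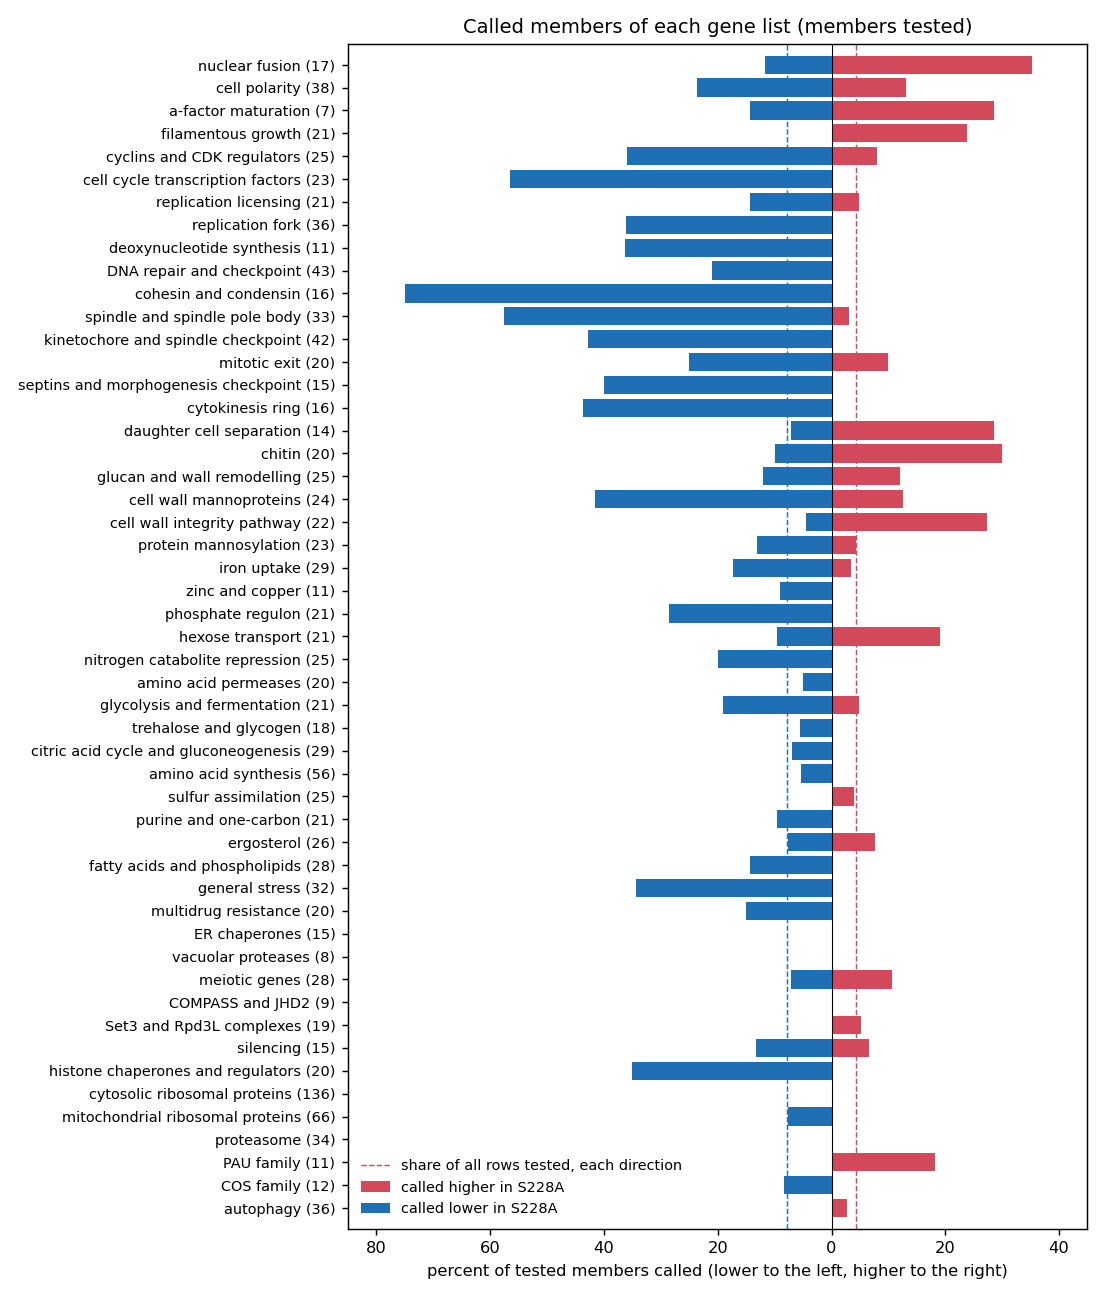
Percent of the tested members of each gene list that were called lower (blue, left) and higher (red, right) in S228A, with the number tested after each name and dashed lines at the 7.81% and 4.37% of all rows tested. The bar of the cohesin and condensin list reaches farthest to the left, with 12 of 16 genes lower, and several lists have no bar.

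Calls in cell wall genes went in both directions within each list. Of 20 chitin genes 6 (30%) were higher and 2 (10%) lower, beside 4.37% and 7.81% of all rows. CHS1, GFA1 and the bulk wall chitin synthase gene CHS3 (log2 0.89) rose, while CHS2, the synthase that lays the primary septum, was at 134.0, 126.0 and 145.4 CPM in WT and at 20.3, 18.3 and 24.6 CPM in S228A (log2 -2.68 ± 0.11; edgeR adjusted p = 1.29e-09). The CHS1 and CHS2 changes had opposite signs in each S228A library. Of 25 glucan genes SCW10, SCW11 and the yapsin gene YPS1 (1.17) were higher and GAS3, GAS1 (-1.19) and KNH1 (-0.99) lower, 12% in each direction. Of 24 wall mannoprotein genes 10 (41.7%) were lower and 3 (12.5%) higher, and CIS3, an abundant mannoprotein, was at 1098, 1178 and 1078 CPM in WT and at 137.1, 104.0 and 154.3 CPM in S228A (-3.08 ± 0.12; edgeR adjusted p = 1.21e-09). Among the 3 higher ones SAG1 is also counted in the mating lists. Of 22 genes of the cell wall integrity pathway 6 (27.3%) were higher, among them the sensor gene WSC2 (0.70 ± 0.07), the MAP kinase gene SLT2 (1.11 ± 0.17) and the phosphatase gene MSG5 (0.88 ± 0.15; edgeR adjusted p at most 0.000566). MSG5 is also counted in the mating lists. WSC4 (-0.98), the 1 lower member of the integrity list, was not called when WT replicate 1, WT replicate 2 (log2 -0.51), S228A replicate 1 or S228A replicate 2 was left out. Of 23 protein mannosylation genes 3 (13%) were lower and 1 (4.35%) higher, the latter at the share of all rows: MNN1, which caps mannose chains, fell by 1.68 ± 0.09, and KTR2 rose by 1.25 ± 0.09 (edgeR adjusted p at most 2.81e-07).

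Of 29 iron genes 5 (17.2%) were lower, beside 7.81% of all rows, and HMX1, a heme oxygenase, was higher (log2 0.84). The lower ones included the siderophore transporter genes ARN2 (-1.48) and SIT1 (-0.64) and FIT2 and FIT3, wall proteins that retain siderophores. FIT3 was at 1884, 1311 and 1581 CPM in WT and at 246.1, 104.6 and 176.7 CPM in S228A (log2 -3.18 ± 0.28; edgeR adjusted p = 2.04e-06), and FIT2 was at 812.5, 645.2 and 683.8 CPM in WT and at 127.6, 49.5 and 88.2 CPM in S228A (-3.01 ± 0.28; edgeR adjusted p = 3.68e-06). The replicates of these genes were wide apart within S228A, though all were below WT. SIT1 was not called without S228A replicate 2, at -0.53. Of 21 phosphate regulon genes 6 (28.6%) were lower, among them SPL2, a regulator of phosphate transport, from 78.7 ± 6.63 to 34.2 ± 3.74 CPM and the acid phosphatase gene PHO12 from 196.3 ± 3.41 to 98.9 ± 9.26 CPM. None of that list was called higher, but 1 was in 9 of the 13 alternative settings, among them those without WT replicate 2, WT replicate 3 or S228A replicate 2. Of 25 genes of nitrogen catabolite repression 5 (20%) were lower and 0 higher, among them the urea permease gene DUR3, from 32.8 ± 6.03 to 18.9 ± 1.5 CPM. With edgeR's glmTreat, which tests against a fold of 1.5 itself, 3 were lower and DUR3 was not called. Of 21 hexose transport genes 4 (19%) were higher, beside 4.37% of all rows, and the glucose transporter genes HXT1 (-1.05) and HXT3 (-0.60) were lower, with 1 of these called without WT replicate 3. HXT3 was not called without that library or without S228A replicate 2, at -0.55 in both, nor with DESeq2 or its size factors, at -0.58 in both, nor under glmTreat. HXT9 was at 3.48, 3.4 and 5.15 CPM in WT and at 23.2, 30.5 and 24.6 CPM in S228A (2.71 ± 0.18; edgeR adjusted p = 1.18e-07), and HXT11 and HXT12 were at 2.29 ± 0.14 and 2.32 ± 0.14. These are near-identical subtelomeric copies, and HXT12 is a pseudogene. Reads placed at several sites were not counted, so the split of the increase among them is uncertain. Of 21 glycolysis and fermentation genes 4 (19%) were lower and 1 (4.76%) higher. PYK2, the minor pyruvate kinase, was at 182.8, 154.1 and 227.9 CPM in WT and at 380.4, 371.1 and 338.6 CPM in S228A (0.95 ± 0.13; edgeR adjusted p = 0.000143). ENO1 was at -0.69 ± 0.14 (edgeR adjusted p = 0.00192) and lost its call without S228A replicate 2, at -0.53, when 2 genes of the list were called lower.

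Of 32 general stress genes 11 (34.4%) were lower and 0 higher, or 7 lower under glmTreat, beside 7.81% and 4.37% of all rows. HSP12, a small heat shock protein of membranes, was at 491.5, 440.7 and 522.3 CPM in WT and at 40.6, 54.1 and 91.2 CPM in S228A, and GRE2, a reductase gene, was at 72.8, 71.1 and 71.9 CPM in WT and at 35.2, 43.5 and 45.7 CPM in S228A. For both genes S228A replicate 3 was the highest of its group and still below every WT library.

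The share of genes called lower was near or below the 7.81% of all rows in the amino acid synthesis, ergosterol, and trehalose and glycogen lists. It was above 7.81% in the lipid and multidrug resistance lists. Over all rows 4.37% were higher. Of 56 amino acid synthesis genes 3 (5.36%) were lower, the aromatic transaminase gene ARO9 (log2 -0.95 ± 0.11), the decarboxylase gene ARO10 (-0.86 ± 0.09) and the branched-chain transaminase gene BAT2 (-0.80 ± 0.10), all of which act in amino acid breakdown to fusel alcohols. The edgeR adjusted p was at most 4.16e-05. In that list 0 members were higher, or 1 without S228A replicate 1 or without S228A replicate 3. Of 26 ergosterol genes 2 were lower and 2 higher (7.69% in each direction), with ERG3 at -1.12 ± 0.11, ERG4 at -1.11 ± 0.10 and the mevalonate pathway gene MVD1 at 0.68 ± 0.07. Without S228A replicate 3 there were 5 lower. The 2 higher genes, MVD1 and ERG24, lie 613 and 505 bases from the mating genes AGA1 (log2 5.49) and PRM1 (5.78). Among 28 lipid genes 4 (14.3%) were lower, led by the fatty acid elongase gene ELO1, which was at 383.4, 449.6 and 334.2 CPM in WT and at 125.5, 112.4 and 136.6 CPM in S228A (-1.64 ± 0.11; edgeR adjusted p = 1.90e-07), and the phospholipid methyltransferase gene OPI3 (-0.84 ± 0.08). The libraries of the 2 strains did not overlap for ELO1. Of 18 trehalose and glycogen genes only the glycogenin gene GLG2 was called, at -1.44 ± 0.11 (edgeR adjusted p = 8.59e-07). Of 20 multidrug resistance genes 3 (15%) were lower, including the efflux pump genes PDR5 (-0.81 ± 0.13) and PDR15 (-1.14 ± 0.19; edgeR adjusted p at most 0.000495).

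Several lists held no called member or few. Of the 9 genes of COMPASS and the H3K4 demethylase JHD2 0 were called, with log2 fold changes from -0.38 to 0.37. The counts were also 0 of 34 proteasome genes, 0 of 15 chaperone genes of the endoplasmic reticulum and 0 of 8 vacuolar protease genes, the last 1 without WT replicate 2. Of 66 mitochondrial ribosomal protein genes 5 (7.58%) were lower, a share near the 7.81% of all rows, with a median log2 of -0.24. A call needs a 1.5-fold change, and a smaller shift in these lists is not counted. Among 19 genes of the Set3 and Rpd3L deacetylase complexes HOS2 was called, at 25.8, 20.5 and 26.9 CPM in WT and at 46.2, 57.4 and 51.9 CPM in S228A, next to YGL194C-A as given above. A lower member was called in that list without WT replicate 1 or without S228A replicate 3. Of 15 silencing genes HST3, a histone H3 lysine 56 deacetylase, was at 49.1, 49.6 and 41.5 CPM in WT and at 10.9, 10.9 and 11.1 CPM in S228A (-2.09 ± 0.10; edgeR adjusted p = 3.57e-09). The S228A values of HST3 lay close together, well under WT. RIF1 and RIF2, both telomere proteins, moved apart at -0.63 ± 0.07 and 0.85 ± 0.11, and RIF1 was not called without S228A replicate 1, at -0.58. RIF2 lies 432 bases from the mating gene SST2 (2.75), in tandem. By contrast, of 20 histone chaperone and regulator genes 7 (35%) were lower and 0 higher, beside 7.81% lower and 4.37% higher over all rows. Among the 7 were CAC2 of chromatin assembly factor 1 (-1.03 ± 0.08), the acetyltransferase gene RTT109 (-1.16 ± 0.12) and NHP6A (-0.75 ± 0.08; edgeR adjusted p at most 2.22e-05). HST3, CAC2 and RTT109 act on H3 or its deposition, and all 3 were lower. Of 28 meiotic genes 3 (10.7%) were higher and 2 (7.14%) lower, with the meiotic regulator genes NDT80 at 0.81 ± 0.09 (edgeR adjusted p = 1.10e-05) and IME1 at 0.66, not called without S228A replicate 1 (0.52). HOP2, also higher (1.32), lies 168 bases from the convergent mating gene AGA2 (3.70).

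Genes next to mating genes were examined as a group, since a divergent neighbour has its start in the same intergenic stretch. The 29 called mating genes had 58 protein-coding neighbours outside the mating and histone lists, of which 8 were called higher and 10 lower. Among 11 divergent neighbours, 5 were higher (45.5%) and 0 lower. Of 15 convergent neighbours 1 (HOP2) was higher and 3 lower, and of 32 tandem neighbours 2 (RIF2 and MVD1) were higher and 7 lower. Among the other 5611 protein-coding genes outside the lists 160 (2.85%) were higher and 437 (7.79%) lower. The divergent pairs, grouped after their values were seen, were PEP1 with FUS3, PEX34 with KAR4, GYP8 with STE2, PRP39 with PRM6 and ERG24 with PRM1. The neighbours were at log2 0.59, 1.40, 1.24, 1.29 and 0.77 and the mating genes at 1.76, 3.41, 2.02, 8.79 and 5.78. The neighbour changed less than its mating gene in all 5 pairs. PEP1 was not called without WT replicate 3 or without S228A replicate 1, at 0.58 in both. Closest to a mating gene among called neighbours were YCR090C, 51 bases from FIG2, and HBN1, 63 bases from FUS1, both convergent and lower at -1.03 and -1.63. CIS3 and CLN1, described above, were the tandem neighbours of FAR1 and CIK1 and were lower beside genes that were higher.

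**Figure D4:**
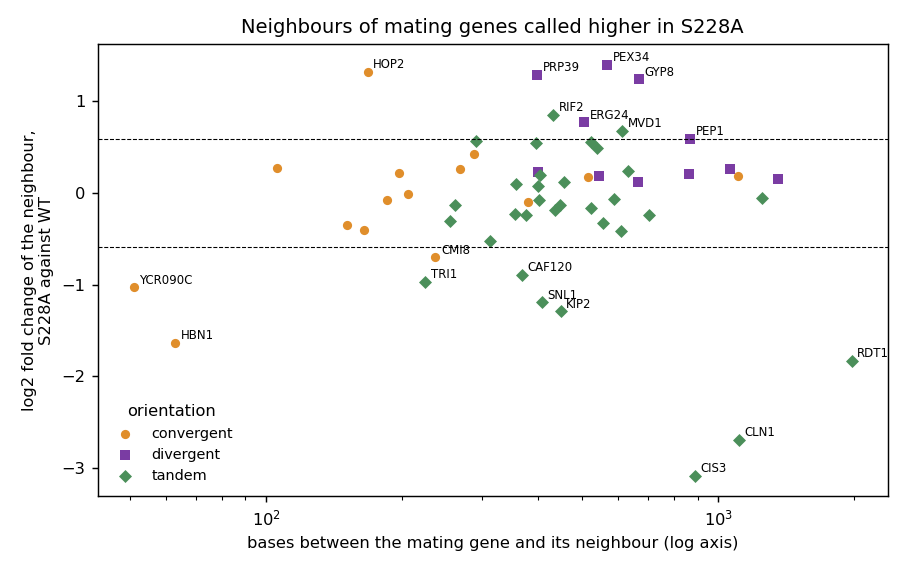
Log2 fold change in S228A against WT of the 58 neighbours of called mating genes, against the bases between the 2 genes (log axis), with dashed lines at a fold change of 1.5 and names on called genes. The 5 called divergent neighbours (purple squares) lie above the upper line, and all 10 called lower neighbours are convergent or tandem.

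Rows near chromosome ends were a larger share of the higher than of the lower calls. Of 356 tested rows within 30 kb of an end, which are 5.8% of all rows tested, 33 were called higher, 12.3% of the 268, and 19 lower, 3.97% of the 479. In protein-coding rows the shares were 13.2% of the higher and 4.15% of the lower calls, against 5.72% of rows tested. Among them BDS1, a sulfatase gene on chromosome XV, went from 56.3 to 137.8 CPM (log2 1.29 ± 0.09) and CSS1 on chromosome IX from 211.7 to 485.1 CPM (1.20 ± 0.09). Both were chosen after their values were seen. PGU1, PEX34 and KAR4 also lie in these stretches, so the count mixes mating genes and their neighbours with other rows. Outside protein-coding genes 44 of 56 transposon rows tested and 12 of 20 tRNA rows tested were higher and 0 lower. All rows of these classes numbered 98 and 299. Over all rows tested 4.37% were higher and 7.81% lower. Rows with few counts in WT could pass the filter through S228A alone, which favours rows that rose. Examples are tI(AAU)I2, with 0 counts in WT, and the chromosome-end transposon rows YCL075W and YCL076W, with a WT mean of 0.0 CPM. Beside the 4.37% and 7.81% of all rows, 14 of 264 unmatched or noncoding rows were higher and 20 lower. Of those, 8 and 16 overlapped another annotated row, so their reads can belong to it.

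Promoter sequence was compared between the groups in 5708 windows of 300 bases, from 250 before to 50 after each gene start, read from the RefSeq R64 genome. The Ste12 motif TGAAACA, searched on both strands like all motifs here, was in 7.27% of all windows. It was in 17.9% of the windows of the 168 genes called higher outside the mating and histone lists (30 windows) and in 5.82% of the 447 called lower. By size it was in 22.8% of those 1.5 to 2 fold higher, 16.1% of those 2 to 4 fold higher and 0 of 20 over 4 fold higher. These genes with the motif are shown because they were named above for their small p and lie outside the mating lists. Those lists do not hold every gene of mating: AXL1 and STE14, both of a-factor maturation and with a match, are outside them. The PRP39 match lies in the 398 bases between PRP39 and the divergent mating gene PRM6 (log2 8.79), so it is upstream of both genes. The capitals mark the match in either orientation. The stretches are chrXIII:181224-181242 plus, chrXVI:781884-781912 plus, chrIV:746270-746298 minus and chrVII:80433-80461 minus, in the order printed.
PRP39: tTGTTTCAgatcattcgtt
AXL1: caagaaaaaaaTGAAACActtatttacac
MKC7: agttttgaaccTGTTTCAataccttattt
COG1: ctgaagaaaaaTGAAACAtggcggtgaat

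Among the genes called lower, the motif ACGCGT of MBF was in 11.6% of windows (52 of 447), against 3.19% of all windows, and 15 of the 20 windows with 2 or more matches belonged to genes called lower. Read the other way, 28.6% of the 182 genes with the motif were called lower and 7.35% of those without it. The 4 genes below are shown because each holds a pair of matches and belongs to nucleotide synthesis, replication or repair. They had log2 fold changes of -1.93 (CDC21), -1.36 (POL1), -1.39 (RAD27) and -1.14 (MSH6). The stretches are chrXV:467694-467758 minus, chrXIV:429868-429930 plus, chrXI:225987-226066 minus and chrIV:643997-644044 minus.
CDC21: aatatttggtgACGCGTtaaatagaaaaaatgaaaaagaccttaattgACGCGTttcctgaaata
POL1: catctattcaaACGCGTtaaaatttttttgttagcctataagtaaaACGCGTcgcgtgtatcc
RAD27: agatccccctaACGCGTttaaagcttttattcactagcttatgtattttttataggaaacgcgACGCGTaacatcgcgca
MSH6: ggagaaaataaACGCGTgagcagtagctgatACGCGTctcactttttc

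The motif CGCGAAA of SBF was in 13.4% of the windows of genes called lower outside the lists and in 4.76% of those called higher, against 3.64% of all. Its share was 20% in genes 2 to 4 fold lower and 9.7% in those 1.5 to 2 fold lower. The genes below, wall, checkpoint and G1/S genes named above, show single matches. They had log2 fold changes of -2.49 (GAS3), -3.66 (TOS4), -2.82 (GIN4) and -1.56 (HSL1). The stretches are chrXIII:696613-696641 plus, chrXII:522222-522250 minus, chrIV:1466018-1466036 minus and chrXI:248754-248782 plus.
GAS3: tcgagaattttTTTCGCGcgctttctatc
TOS4: aaacgccaaaaCGCGAAAaaaaaatcccg
GIN4: tCGCGAAAtatcaacggcc
HSL1: ttgctactaatCGCGAAAagagataaata

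The forkhead motif GTAAACA was in 15.7% of the windows of genes called lower and 4.17% of those called higher outside the lists, against 6.76% of all. Its share was 11.6%, 23.7% and 15.9% in genes 1.5 to 2, 2 to 4 and over 4 fold lower. The genes below span cytokinesis, budding and transcription, with log2 fold changes of -3.06 (HOF1), -2.25 (BUD4) and -2.01 (FKH1). The stretches are chrXIII:335087-335115 plus, chrX:598543-598571 plus and chrIX:102390-102418 minus.
HOF1: ttgggcaagttGTAAACAataaatggtaa
BUD4: tttggaaaaagGTAAACAacaatgaaata
FKH1: ccatggatgagGTAAACAaaaaaatggaa

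Shares were also taken for motifs of other regulators. The stress motif AGGGG of Msn2 and Msn4 was in 22% of all windows, 15.5% of those of higher and 24.2% of those of lower genes outside the lists, and the Gcn4 motif TGACTCA in 2.79%, 3.57% and 1.12%. The motif CACGTG of Cbf1 and Pho4 was in 2.94%, 2.38% and 2.24%, and the Aft1 motif GCACCC in 4.33%, 5.36% and 5.59%. All shares are of letters in a window, and no binding was measured. Matches to ACGCGT and CGCGAAA can share no more than an end base.

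**Figure D5:**
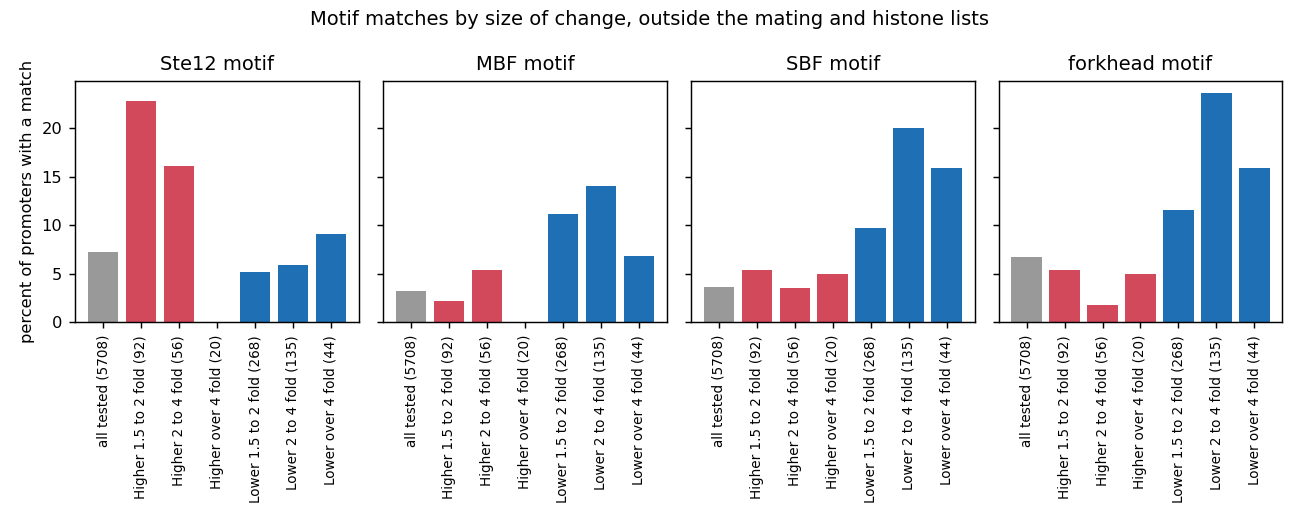
Percent of promoter windows with at least 1 match to each of 4 motifs, for all windows (grey) and for genes called higher (red) or lower (blue) outside the mating and histone lists, by size of change, with the number of windows in brackets. The Ste12 motif stands highest in genes 1.5 to 2 fold higher (22.8%), and the forkhead motif in genes 2 to 4 fold lower (23.7%).

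How well a call held depended on its size. Of the rows 1.5 to 2 fold higher 60.2% (68 of 113) were called in all 6 fits that left out 1 library, against 90% of those 2 to 4 fold and 96.9% of those over 4 fold. For lower rows the shares were 59.2%, 90.1% and 98.2%. With glmTreat 16 of 113 and 51 of 272 rows of the smallest class kept their call. Among the genes described, BEM2, STE14, WSC2, MSG5, RGA1, MVD1, ERG24, BAT2, PDR5, RIF2, NHP6A, MPS3, CDC6, DIF1, SLI15, DUR3, GRE2, MF(ALPHA)2 and HMX1 lost their call under glmTreat and under no other setting. The count of lower cell cycle transcription factors became 7 of 23 by that test, of replication fork genes 8 of 36, of kinetochore and spindle checkpoint genes 10 of 42, and of histone chaperone genes 3 of 20. The higher cell wall integrity genes became 1 of 22 and the lower mitochondrial ribosomal protein genes 0 of 66. The replicates were otherwise close: the median coefficient of variation over 598 called protein-coding genes at 5 CPM or more was 10.6% in S228A and 8.57% in WT. In S228A 5 genes exceeded 50%, among them the cyclin gene PCL2, at 138.5, 308.8 and 126.8 CPM, and PRM4, at 166.0, 375.8 and 166.3 CPM, both highest in S228A replicate 2. The heat shock gene HSP26 was at 28.5, 34.6 and 98.8 CPM and TIR1, a wall mannoprotein, at 41.1, 70.7 and 116.7 CPM, both highest in S228A replicate 3.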

How the data were processed

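Raw counts for 7127 rows and 9 libraries were deposited by the authors; per the file headers, featureCounts 2.0.1 counted paired alignments over sacCer3 exons with no strand option, skipping multiply placed reads. Bowtie 0.12.2 is named in the submitters' processing notes, with no word on whether it served these reads. Per the labels' protocols a KAPA kit was used.

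After filterByExpr and TMM scaling, all 9 libraries entered a single edgeR 4.0.16 quasi-likelihood model (R 4.3.3). Adjusted p is Benjamini-Hochberg over 6133 rows, SE is the size of the log2 fold change over the square root of F, and lists received counts and medians only. The test was checked on simulated data. Alternatives used limma 3.58.1 and DESeq2 1.42.0. Gene lists, motifs and the naming rule (the 5 smallest p per direction and size class outside the mating and histone lists, at 5 CPM or more and with no overlap, and up to 3 called members per list) were chosen with earlier results of these data known. No promoter table was given, so windows came from the R64 genome. Replicates of a group were distinct libraries (chi-square per gene 12.5 to 58.6).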

Additional observations from a re-analysis of the deposited data

How the results depend on the processing

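Over the 13 alternative settings the direction of every called named gene was kept, and 137 of 183 kept their call in each setting. Without 1 library 245 to 305 rows were called higher and 444 to 494 lower. Testing against a fold of 1.5 itself with glmTreat called 156 rows higher and 226 lower, fewer by its construction. DESeq2 called 277 and 448 rows, limma-voom 270 and 478, DESeq2 size factors in edgeR 274 and 449, no filter 272 and 480, and the 6 libraries alone 272 and 448.

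No pairing by replicate number was seen. Same-numbered WT and S228A libraries had correlations of deviations of 0.0128, -0.238 and -0.251, and 1 number of 3 had its best partner in its own number. Deviations from a mean of 3 libraries are tied to each other, so these values cannot exclude a pairing. With a replicate block 267 rows were called higher and 471 lower, of which 264 and 464 were calls of the fit without it. Among the genes described WSC4 was not called with the block, at -0.93.

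Sign changes occurred only in genes that were not called. Over the fits without 1 library HIS3 ran from -0.09 to 0.05, LYS2 from -0.02 to 0.07, ADE2 from -0.16 to 0.02, GAL2 from -0.18 to 0.00, HMRA2 from -0.35 to 0.55, STE3 from -0.24 to 0.23 and SET1 from -0.02 to 0.11. The cause was not tested.

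Counting took both strands together, so antisense and read-through reads cannot be told apart from the gene's own, and repeated genes are undercounted. Calls of 1.5 to 2 fold depend most on single libraries. Rows with few counts in WT passed the filter through S228A only, which favours rows that rose.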
